A study of Drosophila melanogaster with 2 samples.

Results

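The Rab genes were examined for binding of Sage, a basic helix-loop-helix (bHLH) factor that acts in the larval salivary gland. The set holds the 36 protein-coding genes whose symbol is Rab followed by a digit or X, of 13945 protein-coding genes annotated on 2L, 2R, 3L, 3R, 4 and X. The rule uses the gene symbol and no binding value. By their names, 33 members encode Rab GTPases, and the other 3 (Rab3-GEF, Rab3GAP1 and Rab3-GAP) encode regulators of Rab3.

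The data were ChIP-seq peak lists from whole Drosophila melanogaster wandering larvae of the third instar, males and females pooled, from 1 transgenic line carrying a C-terminal fusion of Sage to eGFP (sage-eGFP); the labels do not name the promoter that drives it. Chromatin was precipitated with an antibody against GFP. Both samples (2, numbered as biological replicates 3 and 4) belong to 1 group, and no untagged or untreated group was analysed here. Because whole larvae were used, a region cannot be assigned to the salivary gland or to any other tissue. Each replicate had its own list of regions, 29999 for replicate 3 and 30000 for replicate 4, and a pooled list of both had 30000. By its deposited name, the pooled list holds peaks and background as input for the irreproducible discovery rate (IDR) step. Its strongest 3312 regions form the IDR list, here called IDR peaks. A weaker region of any list is therefore not by itself a call of binding. The signal of a region is the value its peak caller gave it, on a scale of its own in each list, so only ranks (1 is the strongest) are set side by side across lists. Read depth is unknown, and each signal or rank is a single value with no counting error.

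Rab proteins are small GTPases that switch between a GTP-bound form on membranes and a GDP-bound form in the cytosol. Exchange factors (GEFs) load GTP, GTPase-activating proteins (GAPs) end the active state, and each Rab recruits effectors such as tethers and motors that move or fuse 1 class of vesicle. The late larval salivary gland packs glue proteins into large granules, and Rab proteins act in making, maturing, releasing and degrading such granules.

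Proteins translated from the annotated coding sequences differed in size between GTPases and regulators. The longest isoforms of the 33 Rab GTPases had 195 to 686 residues, against 916, 1341 and 2154 residues for Rab3GAP1, Rab3-GAP and Rab3-GEF. Of the 33, 26 carried the conserved switch II motif around the catalytic glutamine with at most 1 mismatch. The other 7 (Rab9D, Rab9Db, Rab9E, Rab9Fa, RabX2, RabX6 and Rab40) had 2 or 3 mismatches, and the 3 regulators had 3 or 4.

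A gene was called bound when the summit of an IDR peak lay within 1 kb of any of its annotated transcription start sites (TSSs). By that rule 5 of 36 Rab genes were bound (13.9%), against 14.4% of all protein-coding genes, so the family as a whole was at the background. The bound genes were Rab5, Rab14, Rab35, Rab39 and Rab32. By step, 4 of these 5 fall in 3 endosomal and lysosomal steps that hold 3 genes each. Among the steps of traffic, 2 of 3 early endosome genes, 1 of 3 recycling genes, 1 of 3 late endosome and lysosome genes and the single gene of lysosome-related organelles were bound. None of 6 genes of the early secretory pathway and Golgi was bound, nor any of 5 exocytosis genes, 2 signalling or ubiquitin genes, 10 Rab9-like and RabX genes or 3 Rab3 regulators. These counts are a description: the steps hold few genes, and no test was made between them. They rest on the IDR list, which leaves out Rab8, an exocytosis gene that ranked 861 in replicate 3 and 1261 in replicate 4. In the strongest regions of both replicates, Rab8 was called and Rab35 and Rab32 were not. The Rab39 summit was nearer to a TSS of another gene, Pdp. The lists of steps were set with earlier results of these data known. The median strongest signal of the bound Rab genes was 132.0, and that of all bound genes was 141.4.

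**Figure D1:**
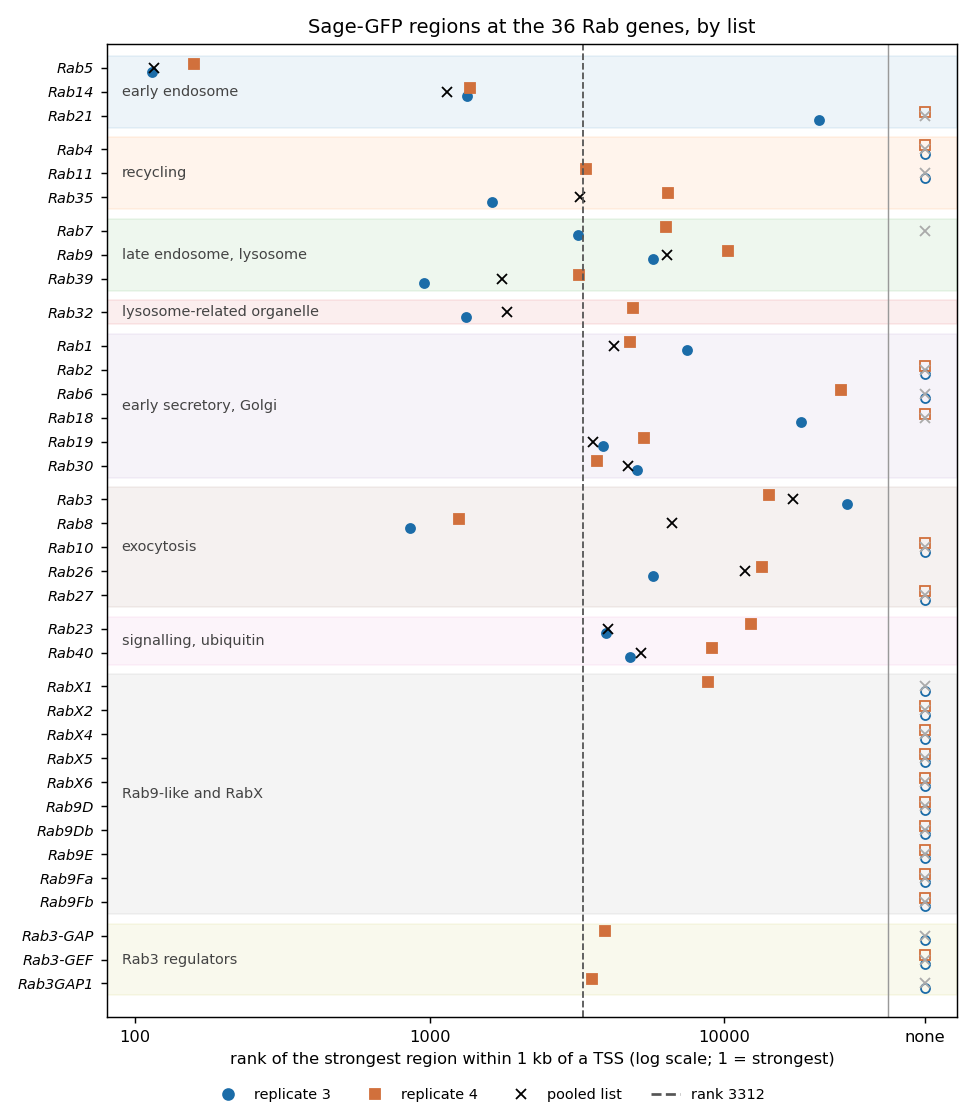
Rank of the strongest region with a summit within 1 kb of a TSS (x axis, log scale, 1 is the strongest) for each of the 36 Rab genes, grouped by trafficking step, in replicate 3 (circles), replicate 4 (squares) and the pooled list (crosses); open or grey symbols in the column "none" mark lists with no such region, and the dashed line is rank 3312, the last rank of the IDR list. Rab5 stands farthest left with ranks 114, 159 and 116, Rab8 has replicate ranks of 861 and 1261 but a pooled rank of 6640, and the Rab9-like and RabX genes are at "none" except RabX1 in replicate 4.

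Rab5, which drives the fusion of endocytic vesicles with early endosomes, had the strongest Sage-GFP peak of the family. Its gene (FBgn0014010) lies on the minus strand at 2L 2359142 to 2365273 and has 6 distinct TSSs. The main peak (2L 2363634 to 2363888, signal 426, rank 116 of 3312) had its summit at 2363731, in an intron of the longer transcripts and 227 bp upstream of an internal TSS. The region at the same place ranked 114 in replicate 3 (signal 187.2) and 159 in replicate 4 (signal 224.7), with summits 1 bp and 0 bp from the pooled summit. Rab5 was therefore among the strongest regions in both samples. A second peak (2L 2365830 to 2366219, signal 99.6, rank 3087) had its summit 752 bp upstream of the most upstream Rab5 TSS. That summit lay in an intron of the oppositely oriented neighbour Axud1, 431 bp inside that gene from its TSS. Its regions ranked 2227 in replicate 3 and 6352 in replicate 4, so it was among the 3312 strongest in replicate 3 but not in replicate 4.

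The windows of 101 bp centred on both Rab5 summits are shown because these are the strongest peak of the family and the second peak of the same gene. They are dm6 plus-strand sequence from the RefSeq Release 6 genome, at 2L 2363681 to 2363781 and 2L 2365975 to 2366075. Capitals would mark matches on either strand to 7 motifs, and neither window holds one. The motifs were the E-box CANNTG, which bHLH factors recognise, and those of further factors: TGTTTAC and its variant TGTTTGC for forkhead proteins, AAATCA for Senseless, TGACGT for CREB proteins, CGATA for DREF and GAGAG for GAGA factor.
Rab5 main summit: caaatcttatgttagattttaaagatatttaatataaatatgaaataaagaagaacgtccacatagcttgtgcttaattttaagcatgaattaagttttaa
Rab5 second summit: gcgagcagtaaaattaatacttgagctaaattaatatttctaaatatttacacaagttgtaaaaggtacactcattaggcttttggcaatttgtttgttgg
The main window is rich in A and T, with a GC content of 21.8%, and the second window has 29.7%. The mean over the windows of all 3292 IDR summits on the arms is 34.7%. A low GC content is not shared by all Rab summits. The windows of Rab14, Rab32 and Rab35 have 34.65%, 36.6% and 39.6%.

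Below the IDR threshold, Rab5 carried further regions along its cluster of start sites. The pooled list held 5 regions with a summit within 1 kb of a Rab5 TSS. The 3 that were not IDR peaks had signals of 90.5, 63.8 and 51.9 and ranks of 3647, 6821 and 9550. Replicate 3 had 6 regions there and replicate 4 had 7. Weaker places differed in strength between the samples in both directions. The region 185 bp upstream of a TSS ranked 1723 in replicate 4 (signal 82.0), while the nearest region of replicate 3, 15 bp inside that TSS, ranked 7733 (signal 30.7). At another TSS the order was turned: the region 72 bp upstream ranked 3418 in replicate 3 (signal 45.5), and the overlapping region of replicate 4, with its summit 65 bp inside, ranked 21530 (signal 18.1).

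**Figure D2:**
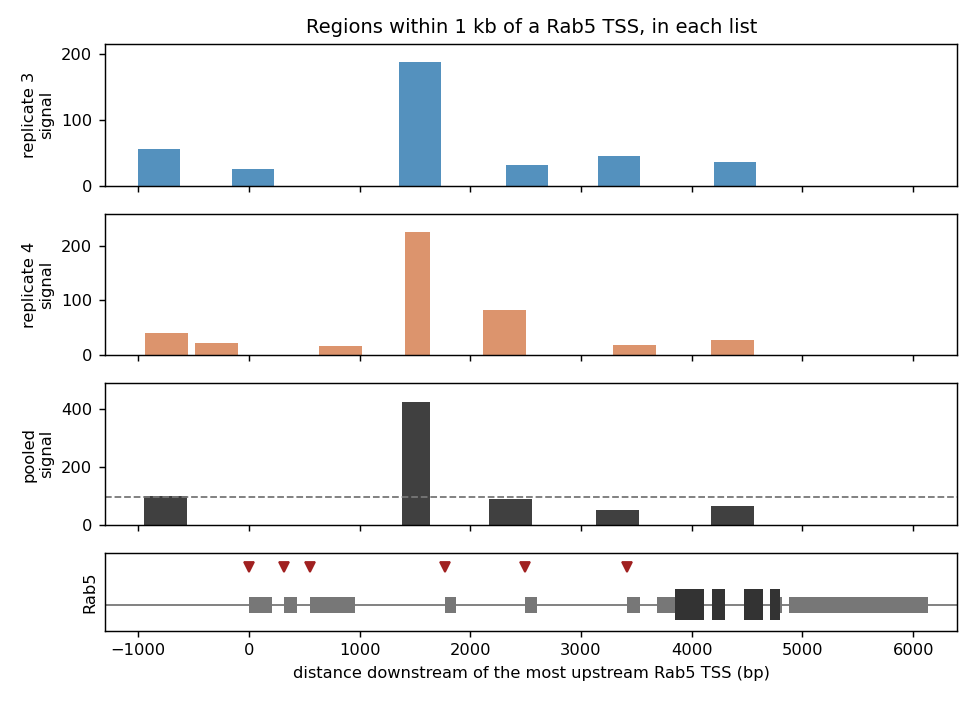
Regions within 1 kb of a Rab5 TSS in replicate 3, replicate 4 and the pooled list, drawn at their width (x axis, bp downstream of the most upstream Rab5 TSS) and signal (y axis, the peak caller's value, on a different scale in each panel), above the exons (grey), coding sequence (dark) and TSSs (triangles). The dashed line is the signal of the last IDR region (95.7); the main region is the tallest in all 3 lists, and the second IDR peak, upstream of the gene, is just above the line.

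Rab14, which in flies acts in traffic from endosomes and phagosomes to lysosomes, had 1 peak and it lay inside the gene. Rab14 was counted above as an early endosome gene, and counting it with the late endosome and lysosome genes was not tried. The gene (FBgn0015791) is on the plus strand at 2L 14355145 to 14358764 and has 3 distinct TSSs. The peak (2L 14355513 to 14355902, signal 161.1, rank 1142) had its summit in an intron, 563 bp downstream of the first TSS. It was 623 bp upstream of the TSS of the divergent neighbour l(2)34Fd. Its region ranked 1341 in replicate 3 (signal 69.0) and 1369 in replicate 4 (signal 90.7), so the replicates placed it nearly alike. It is the 1 Rab peak of 6 with a summit downstream of the nearest TSS of its own gene.

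Rab35, which returns cargo from endosomes to the plasma membrane, had the weakest of the bound genes' strongest peaks. The gene (FBgn0031090) is on the minus strand at X 20155766 to 20159872. The peak (X 20159880 to 20160269, signal 96.9, rank 3246) was intergenic, with its summit 203 bp upstream of the only Rab35 TSS. The overlapping region ranked 1629 in replicate 3 (signal 63.3) and 8098 in replicate 4 (signal 35.6). Replicate 4 ranked another region higher, at 6466, with a summit 775 bp inside the gene. Rab35 was thus called from a peak that was strong in replicate 3 only.

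The Rab14 and Rab35 windows are shown to set a window with 1 match beside the richest one. The first lies at 2L 14355658 to 14355758 and the second at X 20160025 to 20160125, both on the plus strand of dm6 from the RefSeq Release 6 genome. Capitals mark matches on either strand to the motifs named above for the Rab5 windows.
Rab14 summit: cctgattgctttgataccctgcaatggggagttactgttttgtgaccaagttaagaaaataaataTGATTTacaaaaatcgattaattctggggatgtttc
Rab35 summit: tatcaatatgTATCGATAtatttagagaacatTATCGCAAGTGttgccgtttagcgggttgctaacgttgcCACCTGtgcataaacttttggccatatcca
The Rab14 window has 1 AAATCA match (the Senseless motif), on the minus strand. The Rab35 window holds 2 E-boxes and a TATCGATA palindrome, the DNA replication-related element to which DREF binds. It also holds 3 matches to CGATA, 2 of which lie inside the palindrome on opposite strands.

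Over the 6 Rab summits, 1 window of 101 bp had any E-box, where 35.6% of the windows of all 1779 IDR summits within 1 kb of a protein-coding TSS had one. TATCGATA was in 1 of 6, against 2.64% of those windows and 1.49% of all 3292, and AAATCA in 1 of 6, against 12.3% of those near a TSS. CGATA was in 1 of 6, against 19.2% of the windows near a TSS. GAGAG was in none of the 6 windows, against 17.8%. The palindromic E-boxes with a CG, GC or TA centre, both forkhead motifs and the CREB motif were also in none of the 6, against at most 5.96% each of the windows near a TSS. A match is a run of letters, and its absence says only that the letters are not in the window.

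Rab39, which in flies is found on late endosomes and lysosomes, shared its peak with a neighbour. The gene (FBgn0029959) is on the plus strand at X 7734923 to 7736756 with 1 TSS. The summit of the peak (X 7734381 to 7734770, signal 132.0, rank 1757) was 347 bp upstream of that TSS. It was 75 bp inside the divergent gene Pdp, in its annotated 5' UTR, and so nearer to Pdp than to Rab39. The region ranked 958 in replicate 3 (signal 80.5) and 3216 in replicate 4 (signal 60.0), within the 3312 strongest of each. The GC content of its window was 16.8%, the lowest of the 6.

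Rab32 (FBgn0002567), known in flies as lightoid for its part in making eye pigment granules, had an intergenic peak upstream of its first TSS. The gene is on the minus strand at 2R 9177864 to 9186342 and has 5 distinct TSSs. The peak (2R 9186284 to 9186673, signal 128.9, rank 1836) had its summit 137 bp upstream of the most upstream one. Its region ranked 1328 in replicate 3 (signal 69.5) and 4923 in replicate 4 (signal 48.1), again higher in replicate 3. Another pair of IDR peaks lay between 1 and 2 kb from a Rab32 TSS and did not count. One was in an intron of Rab32, 1947 bp from a TSS (signal 95.7, rank 3309). The other was stronger (signal 225.7, rank 554) and lay 1926 bp from a Rab32 TSS but 159 bp from a TSS of Rme-8.

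Of the 6 summits at Rab genes, 5 lay upstream of the nearest TSS of the Rab gene itself (83.3%), against 78.8% over all 2411 pairs of an IDR summit and a protein-coding gene within 1 kb. Scored by the nearest protein-coding TSS of any gene, 3 of the 6 lay upstream (50%), against 74.4% of all 1779 IDR summits within 1 kb of such a TSS. Of the same 6 summits, 3 (50%) were also within 1 kb of a TSS of another protein-coding gene, namely l(2)34Fd, Pdp and Axud1. For all 1779 summits that share was 32.4%. The bound Rab genes had a median of 3 distinct TSSs, the Rab genes that were not bound a median of 1 and all protein-coding genes a median of 1. That median of 3 comes from 6 TSSs at Rab5, 5 at Rab32, 3 at Rab14 and 1 each at Rab35 and Rab39. No median is given here for all bound protein-coding genes, so it cannot be called a trait of Rab genes. Each additional start site adds sequence in which a summit is counted, and its part in the calls was not tested.

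**Figure D3:**
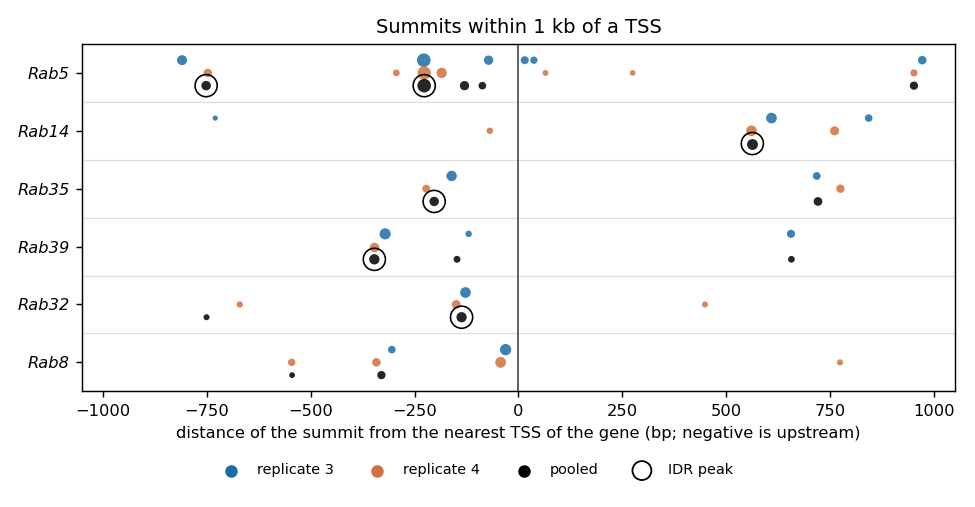
Distance of each summit from the nearest TSS of its gene (x axis, bp, negative is upstream) for the 5 bound Rab genes and Rab8 in replicate 3 (blue), replicate 4 (orange) and the pooled list (black); larger dots are higher ranks, and rings mark IDR peaks. The IDR peaks of Rab5, Rab35, Rab39 and Rab32 lie upstream and that of Rab14 563 bp downstream, while the Rab8 regions 31 and 43 bp upstream have no pooled dot beside them.

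Rab8, which carries vesicles from the Golgi to the plasma membrane, was strong in each replicate and was not among the bound genes. The gene (FBgn0262518) is on the minus strand at 3L 19867488 to 19871078. Replicate 3 had a region at 3L 19870919 to 19871298 with rank 861 and signal 84.0, and its summit was 31 bp upstream of the Rab8 TSS. Replicate 4 had one at 3L 19870926 to 19871315 with rank 1261 and signal 93.9, and its summit was 43 bp upstream. After those at Rab5, these were the highest ranks of any Rab gene in either list. No region of the pooled list overlapped them, and the nearest pooled summit was 1006 bp from that of replicate 3. The pooled regions nearest to a Rab8 TSS were at another start site and had signals of 64.9 and 29.1, with ranks of 6640 and 22973. The place lies between Rab8 and its divergent neighbour Usp32, whose TSS was 30 bp from the summit of replicate 3.

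The 60 bp between the annotated starts of Rab8 and Usp32 (3L 19871079 to 19871138, plus strand of dm6, RefSeq Release 6) are shown because they hold this region's summits. Capitals again mark motif matches on either strand.
Rab8 and Usp32 start: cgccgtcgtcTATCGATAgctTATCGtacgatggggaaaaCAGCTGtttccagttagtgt
It holds a TATCGATA palindrome, as the Rab35 window does, and a CAGCTG E-box. CAGCTG was in 5.96% of the windows of 101 bp centred on the 1779 IDR summits near a TSS. The stretch shown is 60 bp, lies at no IDR peak and was picked after its values were seen. That share is therefore not like for like.

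The replicates gave different counts of bound Rab genes when each list was taken alone at its 3312 strongest regions. Replicate 3 gave 7 of 36 (19.4%), against 16.1% of all protein-coding genes: Rab5, Rab8, Rab14, Rab32, Rab35, Rab39 and Rab7. Replicate 4 gave 4 of 36 (11.1%), against 14.3% of all: Rab5, Rab8, Rab14 and Rab39. The same 4 genes were called in both, which is 11.1% of the Rab genes against 9.65% of all protein-coding genes. Rab5, Rab14 and Rab39 were thus the Rab genes called in the IDR list and in each replicate's strongest regions. Rab7, which takes late endosomes to fusion with lysosomes, ranked 3190 in replicate 3 and 6364 in replicate 4, with summits 34 and 14 bp upstream of a TSS. No pooled region lay within 1 kb of a Rab7 TSS.

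Over their whole lists the replicates had a region within 1 kb of a TSS at 17 of 36 Rab genes in replicate 3 (47.2%, against 47.5% of all genes) and at 20 of 36 in replicate 4 (55.6%, against 47.1% of all genes). At 15 Rab genes both had one (41.7%, against 36.2% of all genes). At 2 only replicate 3 did (5.56%, against 11.3% of all genes), and at 5 only replicate 4 did (13.9%, against 10.98% of all genes). Over those 15 genes the ranks of the strongest region gave a Spearman coefficient of 0.729, and log2 signals a Pearson coefficient of 0.844. These are descriptions over genes that share 2 libraries, and at some genes the strongest regions of the replicates were different places. The pooled list had a region at 14 of 36 Rab genes (38.9%, against 43.5% of all genes). All these counts include weak regions, so presence in a whole list is not a call of binding.

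Among the genes of the early secretory pathway and Golgi, 3 of 6 had a weaker pooled region. Rab19, a Golgi Rab, had the strongest pooled region within 1 kb of a TSS among the Rab genes that were not bound. Its pooled signal of 91.4 ranked 3577, where the last IDR region had 95.7 at rank 3312 and Rab35, just inside, had 96.9. The Rab19 region was 77 bp upstream of a TSS and ranked 3869 in replicate 3 and 5366 in replicate 4. Rab1, which carries cargo from the endoplasmic reticulum to the Golgi, had a pooled signal of 83.3 (rank 4236; 7511 in replicate 3 and 4810 in replicate 4). Rab30, another Golgi Rab, had 78.9 (rank 4699), with replicate ranks of 5069 and 3692 from different places. Rab18, linked to lipid droplets, had a region in replicate 3 only (rank 18285), with a deposited −log10 q-value of 0.354. Rab6, of the Golgi, had one in replicate 4 only (rank 25000), with a value of 0.173. Regions this weak may be background. Rab2, which acts at the Golgi and in fusion with lysosomes, had no region within 1 kb in any list.

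Of the exocytosis genes, Rab26 and Rab3, both of secretory or synaptic vesicles, had weak pooled regions besides those of Rab8. Rab26 had 3 of them, with a highest signal of 45.5 (rank 11780), and Rab3 had 1 with 35.7 (rank 17116). Rab3 ranked 26045 in replicate 3 and 14238 in replicate 4. Rab10, which in flies directs basement membrane secretion, and Rab27, of secretory granules, had none in any list. Both stood far from any IDR peak, with the nearest summit 77481 and 78098 bp from a TSS.

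Of the remaining endosomal genes, Rab9, of transport from late endosomes to the Golgi, had a pooled signal of 66.5 (rank 6385) 30 bp upstream of its TSS. Rab21, an early endosome gene, had a region in replicate 3 only (rank 20927), and its nearest IDR summit was 157917 bp away. Rab4, of fast recycling, had none in any list. Rab11, which directs recycling endosomes and exocytosis, had regions within 1 kb in replicate 4 only, the stronger at rank 3403 and 339 bp upstream of its TSS. Rab11 nevertheless carried 2 IDR peaks inside the gene. The first (3R 21112469 to 21112858, signal 152.6, rank 1285) was in an intron 1256 bp from the TSS and ranked 1791 in replicate 3 and 1349 in replicate 4. The second (signal 121.3, rank 2073) lay 4655 bp from the TSS in the 3' UTR and ranked 2631 and 2571. Both were among the 3312 strongest of each replicate, and they were missed by the rule of 1 kb.

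Rab23, of planar polarity in flies, and Rab40, a Rab with a ubiquitin ligase motif, had pooled signals of 85.7 (rank 4036) and 74.2 (rank 5226), at 229 and 54 bp upstream of a TSS. Rab23 ranked 3976 in replicate 3 and 12370 in replicate 4, and Rab40 ranked 4804 and 9065.

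Of the 10 Rab9-like and RabX genes, 9 had no region within 1 kb of a TSS in any list, and RabX1 had 1, in replicate 4 (rank 8795). In the whole family 14 of 36 genes had none (38.9%), against 40.8% of all protein-coding genes; the other 5 are Rab2, Rab4, Rab10, Rab27 and Rab3-GEF. The 5 Rab9-like genes of this group (Rab9D, Rab9Db, Rab9E, Rab9Fa and Rab9Fb) and RabX2 lie between X 10417429 and 10952486 and hold sequence that recurs on the arms. Of the positions within 1 kb of their TSSs, 45.4% at Rab9D, 13.9% at Rab9E, 12.4% at Rab9Fa, 10.2% at Rab9Db, 8.96% at RabX2 and 0.359% at Rab9Fb began a run of 50 bp found again on the arms, and no other Rab gene had any. The sources used here do not say how reads with several matches were placed, and the part of this in the empty windows was not tested. RabX4 and RabX5 had an IDR peak just outside the window, each nearer to another gene. That of RabX4 was 1798 bp away (rank 1049) and 94 bp from a TSS of CG43273. That of RabX5 was 1323 bp away (rank 3112) and 131 bp from a TSS of RpL23A, a ribosomal protein gene.

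The 3 regulators of Rab3 had no pooled region within 1 kb. Rab3GAP1 and Rab3-GAP, the subunits of the Rab3 GAP complex, each had regions in replicate 4 only, at best ranks of 3556 and 3931. Rab3-GEF, the exchange factor of Rab3, had none in any list.

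Genes of proteins that act with Rabs were also near the background. Of 64 further genes for exchange factors, activating proteins, escorts, effectors and tethers, 7 were bound (10.9%, against 14.4% of all protein-coding genes). With the Rab3-GEF and Rab3GAP1 genes included, 2 of 21 genes of the Rab membrane cycle were bound: spri, an exchange factor for Rab5 (signal 303.7, rank 287), and Mon1, part of the exchange factor for Rab7 (212.4, rank 626). The strongest region within 1 kb of a spri TSS ranked 337 in replicate 3 and 294 in replicate 4. That of Mon1 ranked 274 and 1495. These regions need not lie under the IDR peaks named. One of 17 effectors and tethers was, Rip11, which binds Rab11 (105.6, rank 2746). The list of HOPS, CORVET, retromer and related genes of lysosomal and endosomal complexes gave 3 of 11. They were led by Vps33B (274.9, rank 365), a relative of the HOPS subunit car that forms a separate complex, and dor, a HOPS and CORVET subunit (118.4, rank 2181). By the same measure, Vps33B ranked 288 in replicate 3 and 500 in replicate 4, and dor 4576 and 1932. The exocyst, which tethers secretory vesicles, gave 1 of 8, Sec3 (156.2, rank 1233), and the TRAPP complex, an exchange factor for Rab1, gave 0 of 9. Of 31 other small GTPase genes, 5 were bound (16.1%), led by Mtl, a Rac-like GTPase (615.1, rank 53), and Arl1, a Golgi GTPase (474.5, rank 91).

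**Figure D4:**
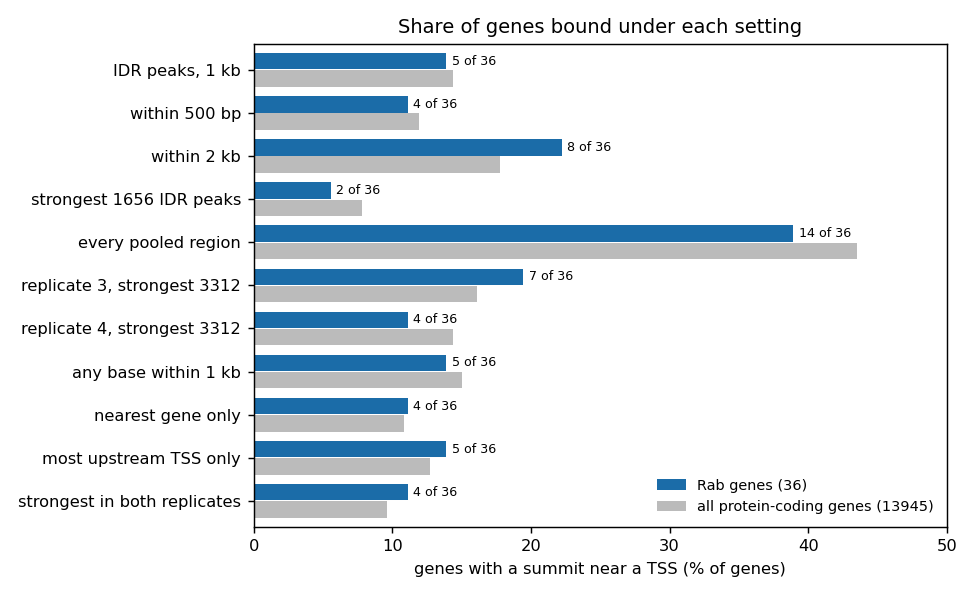
Share of genes (x axis, percent) with a summit near a TSS under each setting, for the 36 Rab genes (blue, with their counts) above all 13945 protein-coding genes (grey); there are no error bars because each share is a single count. The Rab share lies below that of all genes in 6 settings, such as 38.9% against 43.5% in the whole pooled list, and above it in 5, such as 22.2% against 17.7% within 2 kb.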

How the data were processed

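ChIP-seq peak lists of 2 replicates of 1 group were used as deposited, on build dm6. Per the deposited text, regions were called against a control alignment for each replicate and for both together, and IDR was run on these lists; the sources used here name no aligner, caller or version. The deposited signal (column 7) is the peak caller's value per region with its scaling not stated, and the deposited −log10 q-value (column 9) was not used in any call. All 3312 IDR regions are the strongest 3312 of the pooled list. Every dm6 region ended inside its arm of the reference. Lists on dm3 coordinates were left out.

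Summits were start plus deposited offset, coordinates count from 1, and genes came from Ensembl release 115 (BDGP6). Ranks count all regions of a list, including the few outside the arms (4 in replicate 3, 15 in replicate 4). The assignment of summits to genes was tested on simulated data (Python 3.11.15, pandas 2.3.3). Motifs were searched within 50 bp of summits on both strands. With 1 group, no test between groups was possible and no p-value is given. The labels do not say whether the replicates came from separate cultures.

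Named genes are all members, and the 2 strongest bound genes of each partner list. The members and lists were chosen with earlier results of these data known. Older symbols were matched through the RefSeq gene table; the planned names RabX3 and RabX7 matched no gene. Alternatives were other windows, other thresholds, each replicate alone, other assignments of summits to genes, and a wider motif window.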

Additional observations from a re-analysis of the deposited data

How the results depend on the processing

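The count of 5 bound Rab genes became 8 within 2 kb of a TSS (17.7% of all protein-coding genes were bound there), 2 in the strongest 1656 IDR peaks (7.83%) and 14 over every pooled region (43.5%). Within 500 bp it was 4 (12% of all genes), with any base of the region within 1 kb 5 (15.1%), with the nearest gene per summit 4 (10.8%), and with the most upstream TSS alone 5 (12.8%). Among only the 26 genes with the switch motif it stayed 5, which is 19.2% of them against 14.4% of all genes. With 1 replicate left out it ranged from 4 to 7, and the share of all genes from 14.3% to 16.1%. Calls in both replicates' strongest regions, an alternative chosen after seeing the data, gave 4 (9.65%). Rab32 and Rab35 lost their call in the strongest regions of replicate 4 alone and in the strongest 1656 peaks. Rab39 lost its call in those 1656 peaks and with the nearest gene alone, and Rab14 within 500 bp. Rab5 was called under every setting run, but with the most upstream TSS alone its call rested on the second peak (signal 99.6, against 426 for the main peak). The share of summits upstream of the Rab gene's own TSS was 100% within 500 bp (4 of 4), against 85.2% over all pairs of summit and gene. Counting Rab14 and Rab21 as recycling genes gave 1 of 1 early endosome and 2 of 5 recycling genes bound. Within 2 kb the strongest signal at Rab32 was 225.7 in place of 128.9. With 100 bp either side, E-boxes were in 3 of 6 windows (61.4% of those near a TSS), AAATCA in 2 (22.8%), TGTTTAC in 1 (7.03%) and GAGAG in 1 (31.9%). The cause of these shifts was not tested beyond the window or list each setting names. No paired analysis was possible because there is 1 group. Depth is unknown, so weaker regions cannot be told from sampling.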

Other observations

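The region shared by Rab8 and Usp32 was 1 of 31 regions of replicate 3 that were among the 3312 strongest, met one of the 3312 strongest of replicate 4, and overlapped no region of the pooled list. They were 1.59% of the 1953 regions of replicate 3 so shared, and replicate 4 gave 31 as well. Of the 51 genes with a TSS within 1 kb of these regions, 4 (7.84%) were in the Rab, partner and small GTPase lists. Those lists hold 131 of 13945 genes (0.939%). Rab8 led to this set, so its place among the 4 was fixed beforehand. The 0.939% is over all genes, not over genes strong in both replicates, so the shares are not like for like. No test was made of this count. Besides Rab8, the 4 included Rep, the escort protein of newly made Rabs (rank 531 in replicate 3 and 586 in replicate 4, 32 bp upstream of the TSS). They also included Rbsn-5, an effector of Rab5 (1252 and 756, 62 bp upstream), and Arl5, a Golgi GTPase (587 and 1114, 53 bp upstream). None of these 3 genes was bound by the IDR list.

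These 31 regions lay mostly at promoters. Of the 31, 30 had a summit within 1 kb of a protein-coding TSS (96.8%), against 54.8% of the 1922 shared strong regions that did have a pooled region. For 20 of the 31 (64.5%) at least 2 protein-coding genes had a TSS within 1 kb, against 17.4% of the 1922. Among regions near a TSS alone, these were 20 of 30 against 334 of 1053, a smaller contrast. TATCGATA was in 2 of 31 windows of 101 bp (6.45%), against 1.14% of the 1922, and mean GC content was 30.3% against 33.2%. Of those 2 windows, 1 was at Rab8 and Usp32, the region that led to the set. Neither the TATCGATA contrast nor the GC contrast was adjusted for the different shares of regions near a TSS. The set was found after the Rab8 values were seen, and no cause for the missing pooled regions was tested. A list of genes bound in the IDR peaks can therefore miss genes, such as Rab8, that were strong in both samples.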
